A study of Mus musculus with 21 samples.

Results

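Heat shock chaperones and cold-inducible RNA-binding proteins were followed through colon and colorectal tumours of mice as 10 transcripts, taken by gene symbol from the 24062 genes of the count table. They are Hspa1a, Hspa1b, Hspa8, Hsp90aa1, Hsph1, Dnajb1 and Hspb1 of the cytosol, Hspa5 of the endoplasmic reticulum (ER), and the cold-inducible Cirbp and Rbm3. All 10 passed the filter on low counts, which kept 15936 genes for testing. RNA sequencing was done on 21 colon libraries from C57BL/6 mice that were wild-type or had App NL-G-F, a humanised App allele with mutations of familial Alzheimer's disease knocked into the mouse gene. Tumours had been obtained with AOM/DSS, the carcinogen azoxymethane followed by dextran sulfate sodium, an agent that inflames the colon. There were 7 groups of 3 libraries. In males these were normal colon and tumour of both genotypes, and in females they were wild-type normal colon, wild-type tumour and knock-in normal colon. No knock-in female tumours were analysed here. The series asks why AOM/DSS had different outcomes in App mutant mice and whether sex matters. The labels mark the normal colon libraries as untreated, whereas the series description speaks of normal tissue beside a tumour, or of normal colon where none had formed. Ages are not stated, and nothing in the labels says that the replicates of a group are separate animals, so the p-values measure the spread between these libraries, which may be technical.

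Heat shock proteins bind unfolded or partly folded proteins and help them to fold, to be held soluble or to be degraded. Many of their genes are switched on by the transcription factor HSF1 when unfolded protein accumulates in the cytosol, while unfolded protein in the ER raises Hspa5 and its partners through the unfolded protein response. Cirbp and Rbm3 encode small RNA-binding proteins whose levels rise with mild cooling and fall with warming.

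Upstream sequences were available in RefSeq (GRCm38.p6) for 7 of the 10 genes (the others being Hspa8, Hsp90aa1 and Rbm3), and the 250 bases before each transcription start were searched for known response elements. The heat shock element that HSF1 binds is built from units of GAA and its inverse, and the shortest form with facing or opposed units, GAANNTTC or TTCNNGAA on either strand, was found in Hspa1a, Hspa1b, Hsph1 and Hspb1. It stands in 12.8% of the 32851 promoters searched in the same way, so that its presence alone is a common feature. The ER stress response element, CCAAT and CCACG with 9 bases between them, read on both strands, was found in Hspa5 and stands in 0.113% of those promoters. The mild-cold response element TCCCCGCC, also read on both strands, was found in Cirbp, Hspa1a and Hspa1b and stands in 4.64%. No heat shock element of these letters lay in the windows of Dnajb1, Hspa5 or Cirbp. The stretches around the heat shock and ER stress elements are shown 5′ to 3′ on the strand of the gene, and capitals mark these elements. The mild-cold element of Hspa1a and Hspa1b, 137 bases before the start, lies within their stretches on the opposite strand and is not in capitals. That of Cirbp, 247 bases before a start, is not shown. The starts are those of RefSeq, and the GENCODE spans of Hspa5 and Hsph1 given below begin farther upstream and include the stretches shown in whole or in part. A match is a description of letters and not evidence of a working site.

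Hspa1a, chr17:34972213-34972300, minus strand: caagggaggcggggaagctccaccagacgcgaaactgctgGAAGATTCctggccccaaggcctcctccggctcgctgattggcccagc
Hspa1b, chr17:34959295-34959382, minus strand: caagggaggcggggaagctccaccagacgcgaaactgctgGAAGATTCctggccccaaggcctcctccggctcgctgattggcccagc
Hsph1, chr5:149636353-149636378, minus strand: gtagaatctTTCTCGAAggctcgaga
Hspb1, chr5:135887762-135887869, plus strand: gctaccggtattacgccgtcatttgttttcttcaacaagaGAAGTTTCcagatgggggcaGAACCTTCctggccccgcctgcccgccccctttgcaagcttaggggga
Hspa5, chr2:34772020-34772048, plus strand: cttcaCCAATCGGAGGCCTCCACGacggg

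The Hspa1a and Hspa1b stretches are the same sequence, and 247 of the 250 upstream bases of this pair are identical. Hspb1 carries its elements 117 and 97 bases before the start, and the pair of HSP70 genes carries one 104 bases before.

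Library totals ran from 3414123 counts in wild-type male tumour replicate 2 to 26174008 in wild-type female normal replicate 1. Levels are given as CPM, each library scaled to the same total, with TMM correction, and sets of values follow the replicate order 1, 2 and 3, or 1, a and b in knock-in female normal colon, where 2 columns share a header name. Adjusted p-values are those of the quasi-likelihood test in edgeR, adjusted by Benjamini and Hochberg's method over the 15936 genes, and a gene is said to be called where this value is under 0.05. Of 8 colon marker genes, 7 were in the table, and none of them was at 0 in any library. The tissue is a mixture of cells, and fewer cells of a type cannot be told apart from less RNA per cell.

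Wild-type female tumour replicate 1 stood apart before any comparison. It held the highest level among all 21 libraries of Hspa1b, Hspa8, Hsp90aa1, Hsph1, Dnajb1 and Hspb1, and it is numbered 105 in the labels, whereas the other two tumours of its group are numbered 152 and 153. Its summed leukocyte markers were at 266 CPM against 154 and 193 CPM in the other two, and its summed proliferation markers at 1705 CPM against 1306 and 1275 CPM. Many results that involve this library are therefore given with and without it. Others, among them several gene lists, single genes of those lists and the genes most like each member, are given only with it. Their dependence on this library is not shown. The part of the library numbers, leukocytes or proliferation in these levels was not tested.

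The members lie on 8 chromosomes of GRCm38, and all are protein-coding genes in the GENCODE M21 annotation. Hspa1a spans chr17:34969190-34972156 and Hspa1b chr17:34956436-34959238, both on the minus strand. Hspa8 spans chr9:40800984-40810087 and Dnajb1 chr8:83608193-83612653 on the plus strand, and Hsp90aa1 spans chr12:110690605-110702728 on the minus strand. Hsph1 (chr5:149614287-149636376, minus strand) and Hspb1 (chr5:135887919-135889563, plus strand) share chromosome 5. Hspa5 spans chr2:34771970-34777547 and Cirbp chr10:80165985-80172786 on the plus strand, and Rbm3 lies on the X chromosome, chrX:8138975-8145880, on the minus strand.

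Per kilobase of the longest annotated transcript, the constitutive Hspa8 was the most abundant member, with a mean of 417 CPM per kb over all libraries. Hspa5 followed at 129 and Hsp90aa1 at 82.1 CPM per kb. Hspb1 stood at 52.8, Rbm3 at 33.7, Cirbp at 23.6, Dnajb1 at 18.0, Hsph1 at 15.3 and Hspa1b at 12.1 CPM per kb, with Hspa1a lowest at 3.28 CPM per kb. By these counts the strongly inducible HSP70 pair lay at the bottom of this scale and their constitutive relative at the top. The levels of the pair also depend on how reads that fit both genes were handled. That is not given, so their place on this scale is uncertain.

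**Figure D1:**
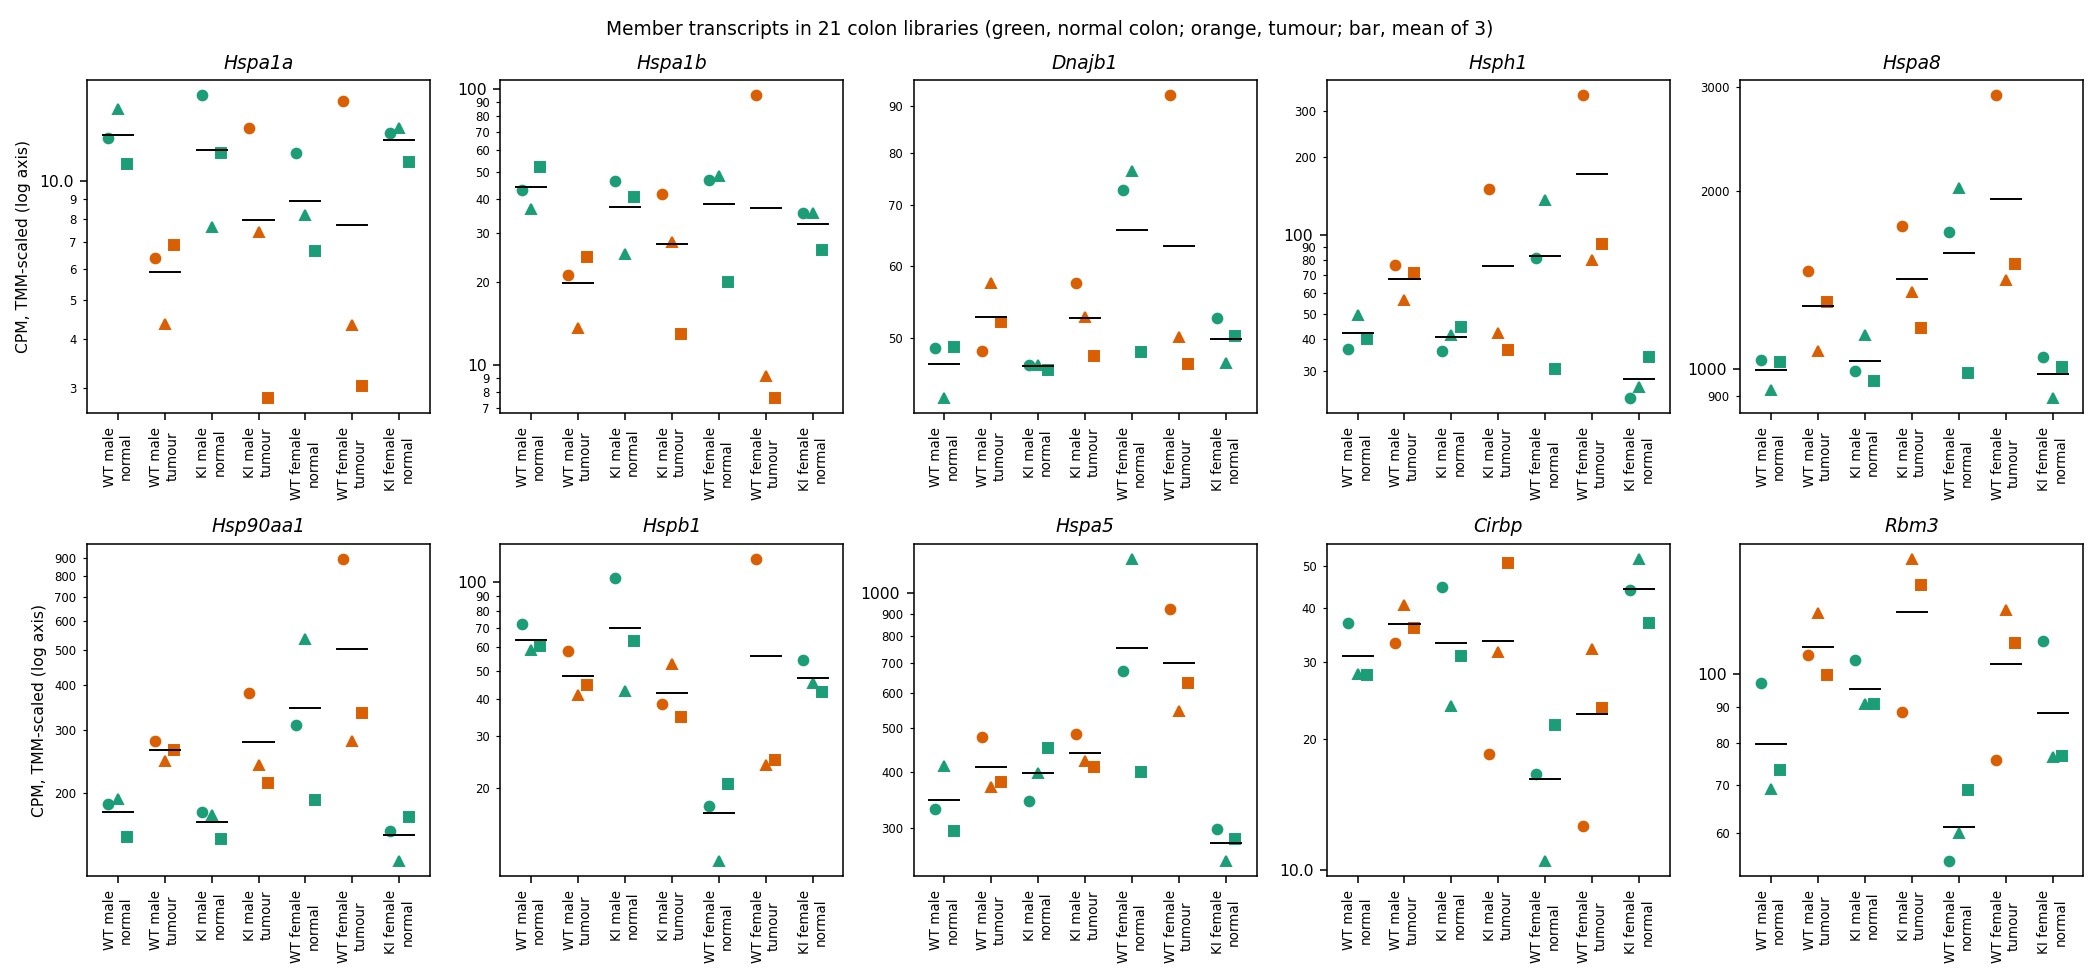
Level of each member in CPM (vertical log axis, TMM-scaled) in the 21 libraries, by group on the horizontal axis. Green points are normal colon and orange points tumours, circles, triangles and squares are the replicates 1, 2 and 3 (or 1, a and b), and bars are means of 3. Wild-type female tumour replicate 1 (orange circle) sits far above its group in Hspa1b (94.9 against 9.12 and 7.61 CPM), Hsph1, Hsp90aa1 and Hspb1.

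Of the 8 calls of members in the 9 comparisons of 2 groups, 4 were between genotypes in female normal colon. In that comparison 4 of 10 members were called, where 16% of all tested genes were. Hspa5 and Hsp90aa1 were lower in knock-in animals, where 7% of all genes were, and Cirbp and Hspb1 were higher, where 8.97% were. Without overlap between the groups, 3 members were higher (19.6% of all genes) and 2 lower (18.2%). In tumours against normal colon, edgeR called 0 members in wild-type males (35.7% of all genes called), 0 in males with the knock-in (20.4%) and 2 in wild-type females (49.1%), Hspb1 and Rbm3, both higher (25%). Those 2 were also the members without overlap in wild-type females, both higher (29.9% of all genes), with 0 lower (28.6%). By edgeR calls the members' shares were below the background in all 3 tumour comparisons.

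At an unadjusted p under 0.05 there was 1 member in the wild-type male tumour comparison, Rbm3, and there were 0 in knock-in males, and DESeq2 called 0 in both. Between genotypes edgeR called 0 members in male tumours (14.5% of all genes called) and 0 in male normal colon (0.0126%), with 0 members at an unadjusted p under 0.05 and 0 called by DESeq2 in each. Between sexes 2 members were called in wild-type normal colon (15.9% of all genes), Hspa5 higher (5.74%) and Hspb1 lower (10.2%) in females. In wild-type tumours edgeR called 0 members between sexes (0.86%), with 4 at an unadjusted p under 0.05 and 0 by DESeq2. In knock-in normal colon 0 were called between sexes (0.584%), with 0 unadjusted and 0 by DESeq2.

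**Figure D2:**
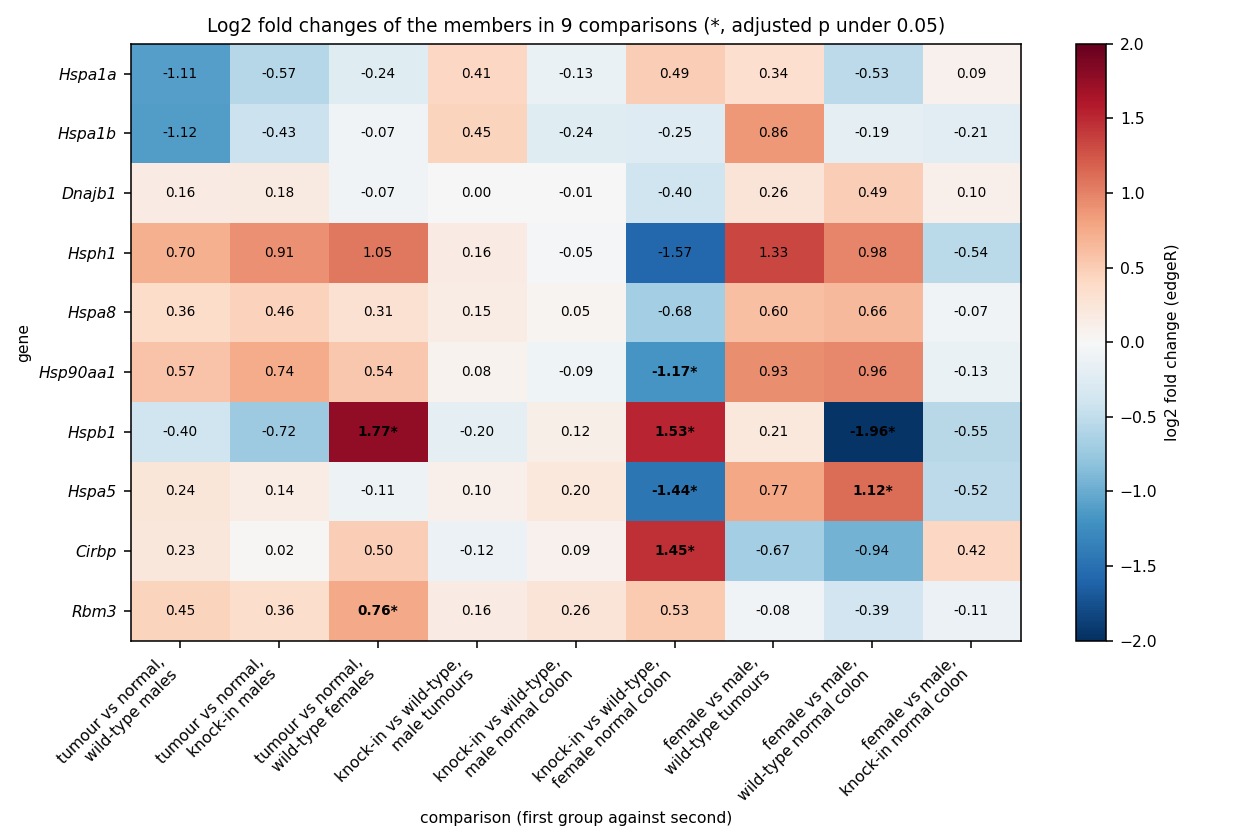
Log2 fold changes (edgeR, colour and printed number) of the 10 members (rows) in the 9 comparisons of 2 groups (columns). Stars mark adjusted p under 0.05, and the column of knock-in against wild-type female normal colon holds 4 of the 8 starred cells, from -1.44 for Hspa5 to 1.53 for Hspb1.

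Hspa1a and Hspa1b encode the stress-inducible HSP70, which refolds damaged proteins, and are near-identical neighbours on chromosome 17. In wild-type males, Hspa1a was at 12.8, 15.2 and 11.0 CPM in normal colon and 6.40, 4.36 and 6.90 CPM in tumours. Hspa1b was at 43.2, 36.9 and 52.2 CPM in normal colon and 21.2, 13.7 and 24.7 CPM in tumours. All 3 tumours were below all 3 normal libraries for both genes, which held for 26.4% of all genes. The fitted differences did not pass the test with all groups sharing the spread (Hspa1a log2 fold change -1.11, SE 0.53, edgeR adjusted p = 0.113). For Hspa1b the log2 fold change was -1.12, SE 0.72, edgeR adjusted p = 0.246. With a fit of these 6 libraries alone, both were called, at adjusted p = 0.00882 for Hspa1a and 0.00732 for Hspa1b by edgeR.

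In knock-in males, Hspa1a was at 16.4, 7.65 and 11.7 CPM in normal colon and 13.6, 7.45 and 2.84 CPM in tumours, and the groups overlapped. Hspa1b was at 46.6, 25.2 and 40.7 CPM in normal colon and 41.8, 28.0 and 12.9 CPM in tumours, also with overlap. The tumours covered a wide range, with replicate 1 at the level of normal colon and replicate 3 lowest of its group for both genes. In wild-type females, Hspa1a was at 11.8, 8.22 and 6.65 CPM in normal colon and 15.9, 4.32 and 3.04 CPM in tumours. Hspa1b was at 46.8, 48.5 and 20.0 CPM in normal colon and 94.9, 9.12 and 7.61 CPM in tumours. Here tumour replicate 1 was above every normal library and the other two tumours were below every one. With all libraries the female tumour difference was -0.24 for Hspa1a and -0.07 for Hspa1b on the log2 scale, with 95% intervals of -1.27 to 0.79 and -1.46 to 1.32. Without tumour replicate 1 it was -1.29 for Hspa1a (edgeR adjusted p = 0.0386) and -2.21 for Hspa1b (edgeR adjusted p = 0.00145). Knock-in female normal colon was at 13.2, 13.6 and 11.2 CPM of Hspa1a and 35.5, 35.6 and 26.1 CPM of Hspa1b, inside the range spanned by the other normal groups.

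Reads of this pair can be assigned to the wrong member, and the authors' handling of reads that fit both is not given in the sources used here. Of all 50-base stretches, 58.8% of those in the Hspa1a transcript occur in Hspa1b and 62.3% of those in Hspa1b occur in Hspa1a. Hspa1a took between 14.3% and 32.2% of the pair's counts per library (median 23.3%). With both genes summed, the wild-type male tumour difference was -1.12 (SE 0.68, edgeR adjusted p = 0.215). The predicted gene Gm20481 overlaps Hspa1a on the opposite strand, and whether counting used strand is not stated.

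Dnajb1 encodes the J protein that delivers clients to HSP70, and it varied least of all members between the lowest and the highest library, by 2.15-fold. Its libraries ran from 43.0 to 57.6 CPM in the 5 groups other than the wild-type females. Wild-type female normal colon was at 72.8, 76.5 and 48.3 CPM and wild-type female tumours at 92.4, 50.1 and 46.8 CPM. Both groups held libraries well above the others beside one or more at their level. No comparison of 2 groups called Dnajb1. Without tumour replicate 1 it was lower in wild-type female tumours than in normal colon (-0.44, edgeR adjusted p = 0.0267).

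Hsph1 encodes HSP110, a nucleotide exchange factor that resets HSP70, and it had the widest range of the members, 14.5-fold between libraries. In wild-type males it was at 36.6, 49.5 and 39.8 CPM in normal colon and 76.6, 56.1 and 71.3 CPM in tumours, without overlap. In knock-in males it was at 36.0, 41.4 and 44.4 CPM in normal colon and 150.2, 42.0 and 36.3 CPM in tumours. Only knock-in male tumour replicate 1 was above its normal group there. In wild-type females it was at 81.7, 136 and 30.6 CPM in normal colon and 344, 80.3 and 92.0 CPM in tumours. Knock-in female normal colon was at 23.7, 26.1 and 34.2 CPM, the lowest group mean, at 28.0 ± 5.50 CPM (SD, n = 3) against 82.9 ± 52.8 CPM in wild-type female normal colon. The ranges of these normal groups overlapped through wild-type replicate 3, and the difference was -1.57 (95% interval -2.78 to -0.36, edgeR adjusted p = 0.0973). In the fit of all groups, none of the 3 tumour comparisons called it, with log2 fold changes of 0.70, 0.91 and 1.05 in wild-type males, in males with the knock-in and in wild-type females. The wild-type female value was 0.056 without tumour replicate 1 (edgeR adjusted p = 0.947), and the knock-in male value -0.10 without tumour replicate 1 of that group (edgeR adjusted p = 0.919).

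Hspa8 encodes the constitutive HSC70, which folds new proteins and uncoats clathrin vesicles. In wild-type males it was at 1036, 923 and 1028 CPM in normal colon and 1463, 1075 and 1299 CPM in tumours. In knock-in males it was at 992, 1141 and 956 CPM in normal colon and 1742, 1350.0 and 1171 CPM in tumours. In both genotypes every tumour was above every normal library of that genotype, by small margins. In wild-type females, normal colon was at 1701, 2019.9 and 985 CPM and tumours at 2899.9, 1415 and 1504 CPM, with overlap. Knock-in female normal colon was at 1046, 894 and 1007 CPM. That group reached just above the lowest wild-type female normal library and stayed far under the other two. The male tumour differences were 0.36 (edgeR adjusted p = 0.279) in wild-type and 0.46 (edgeR adjusted p = 0.195) in knock-in animals. Small nucleolar RNA genes of the Snord14 family lie inside Hspa8, and the 2 of them in the table had 0 counts in every library.

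Hsp90aa1 encodes the inducible HSP90, which matures kinases and receptors. In wild-type males it was at 187, 193 and 152 CPM in normal colon and 279, 246 and 264 CPM in tumours. In knock-in males it was at 177, 174 and 149 CPM in normal colon and 379.8, 239.6 and 214 CPM in tumours. As with Hspa8, every male tumour was above every normal library of its genotype. The differences were 0.57 (edgeR adjusted p = 0.258) in wild-type and 0.74 (edgeR adjusted p = 0.176) in knock-in males, and the first was called with a fit of the compared groups alone (edgeR adjusted p = 0.0110). In wild-type females it was at 309, 536 and 191 CPM in normal colon and 894, 279 and 334 CPM in tumours, with overlap.

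Ranges without overlap between tumour and normal were found for 4 members that were higher and 3 that were lower in wild-type males, against 26% and 26.4% of all genes. In knock-in males 3 members were higher without overlap, Hspa8, Hsp90aa1 and Dnajb1, against 16.1% of all genes, and 0 were lower, against 17.5%. The interaction of genotype and tumour in males called 0 members (1.51% of all genes), with 0 at an unadjusted p under 0.05 and 0 by DESeq2.

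In female normal colon Hsp90aa1 was lower in knock-in animals, at 157, 129.5 and 172 CPM against 309, 536 and 191 CPM. All 3 knock-in libraries were under all 3 wild-type ones, although wild-type replicate 3 was close to them. The log2 fold change was -1.17, SE 0.38, edgeR adjusted p = 0.0479. This call was narrow: without wild-type replicate 2 the difference was -0.71 (edgeR adjusted p = 0.274), and it was also lost with library totals as scaling (0.0679), without a low-count filter (0.0734) and when any other library of these groups but wild-type replicate 3 was left out.

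Hspb1 encodes HSP27, a small heat shock protein that holds unfolding proteins and is abundant in muscle. In female normal colon it was at 17.4, 11.3 and 20.6 CPM in wild-type and 54.4, 45.4 and 42.2 CPM in knock-in animals. Every knock-in library was above the highest wild-type one, and the log2 fold change was 1.53, SE 0.50, edgeR adjusted p = 0.0483. Male normal colon was at 72.0, 58.7 and 60.5 CPM in wild-type and 103, 42.8 and 63.0 CPM in knock-in animals. The wild-type female normal group was thus the lowest of the 4 normal groups, and it was lower than wild-type males (-1.96, SE 0.50, edgeR adjusted p = 0.0163). The knock-in difference in females was no longer called without a low-count filter (1.54, edgeR adjusted p = 0.0701), with offsets for GC content and length (1.25, edgeR adjusted p = 0.0684), or when any 1 of the 6 libraries was left out (edgeR adjusted p from 0.0608 to 0.179). The sex difference in wild-type animals was lost without male replicate 1 (edgeR adjusted p = 0.0550) and without female replicate 1 (0.0568) or 2 (0.0831).

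In tumours Hspb1 was at 120.0, 24.0 and 24.9 CPM in wild-type females, 58.4, 41.3 and 44.9 CPM in wild-type males and 38.7, 52.7 and 34.9 CPM in knock-in males. Each wild-type female tumour was above each wild-type female normal library, but replicate 1 alone was far above the others. The female tumour difference was 1.77, SE 0.50, edgeR adjusted p = 0.00831. Without tumour replicate 1 it was 0.57 (edgeR adjusted p = 0.144), and with a fit of the compared groups alone 1.76 (edgeR adjusted p = 0.0690). In wild-type males the 3 tumours were all below the 3 normal libraries, with a difference of -0.40 (edgeR adjusted p = 0.551). The interaction of sex and tumour in wild-type animals called 0 members with edgeR (1.12% of all genes called). It had 1 member at an unadjusted p under 0.05, Hspb1 (2.16, edgeR adjusted p = 0.15), which DESeq2 called at adjusted p = 0.0211. DESeq2 was run only with all libraries, so its call includes tumour replicate 1, without which the female tumour difference was 0.57. With any 1 library of these groups left out, edgeR called 0 members in this interaction.

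Other small heat shock proteins were read from a list of 6 genes, of which 5 were tested. Tumours of wild-type males had 2 lower and 0 higher of them, those of knock-in males 2 and 0, and those of wild-type females 3 and 1. Hspb7, a small heat shock protein of muscle, was lower in all 3, by -4.18 (SE 0.66), -2.24 (SE 0.54) and -4.96 (SE 0.85) on the log2 scale. Its mean was 0.265 CPM in wild-type female tumours against 9.08 CPM in their normal colon. In those tumour libraries 3 counts make 0.334 to 0.425 CPM, so the size of that fall is uncertain. The gene of this list that was higher in wild-type female tumours was Hspb8 (0.87, SE 0.30), a partner of Bag3. Without tumour replicate 1 of that group, 0 of the 5 were higher and 2 lower. Leaving out wild-type female normal replicate 1 or 2 also left 0 higher, as did a fit of the compared groups alone. In knock-in female normal colon 3 of the 5 were higher and 0 lower, namely Hspb2 (2.44, SE 0.81), Hspb7 (1.91) and Hspb8 (1.68). Hspb2 was hardly detected, at 0.807 ± 0.339 CPM in knock-in and 0.145 ± 0.156 CPM in wild-type libraries (SD, n = 3). In the wild-type ones 3 counts make 0.115 to 0.467 CPM, so the size of its difference is uncertain. Without a low-count filter 2 of 6 genes were higher, and with a mean of at least 50 counts 2 of 4. The list's median difference was 1.68 there, beside 0.02 over all genes tested. Leaving out wild-type replicate 1 or 2 or knock-in replicate a each left 1 of the 5 called higher.

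Smooth muscle markers moved in the same comparisons. All 12 of a list of smooth muscle genes were lower in each of the 3 tumour comparisons, with median log2 fold changes of -3.91, -2.50 and -4.04. In female normal colon 6 of the 12 were higher in knock-in animals, and their summed level was 2430 to 5640 CPM in wild-type and 8578 to 12019 CPM in knock-in libraries, without overlap. Summed epithelial markers were at 10882 to 11763 CPM in wild-type and 10135 to 10372 CPM in knock-in female normal libraries. The share of all counts from Rn45s, a ribosomal precursor transcript, was 2.84% to 3.18% against 4.85% to 5.96%. The part of these differences in the levels of Hspb1 and of the other members was not tested.

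Hspa5 encodes BiP, the HSP70 of the ER and the sensor that releases the unfolded protein response when it is occupied. In female normal colon it was at 672, 1191 and 399 CPM in wild-type and 298, 253 and 283 CPM in knock-in animals. Every knock-in library was below every wild-type library, while the wild-type group itself was spread widely around replicate 2. The group means were 754 ± 402 CPM and 278 ± 23.0 CPM (SD, n = 3), a 2.71-fold difference in fitted level (-1.44, SE 0.28, edgeR adjusted p = 0.00295). This difference stayed called under every alternative run, including when each library of the 2 groups was left out in turn. Without wild-type replicate 2, the highest library, it was -0.95 (edgeR adjusted p = 0.0177), and with a fit of the compared groups alone -1.45 (edgeR adjusted p = 0.0460). With offsets for GC content and length it was -1.40 (edgeR adjusted p = 0.00375).

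Male normal colon was at 331, 413 and 295 CPM of Hspa5 in wild-type and 344, 398 and 453 CPM in knock-in animals. These male groups overlapped, and the knock-in difference was 0.20 with a 95% interval of -0.34 to 0.74. The genotype difference in females minus that in males was -1.64 (SE 0.39, edgeR adjusted p = 0.0350). Among the members only Hspa5 was called in this interaction, where 2.54% of all genes were (0.778% lower). Wild-type females were higher than wild-type males (1.12, SE 0.28, edgeR adjusted p = 0.0123), although their lowest library lay inside the male range. Without female replicate 2 that sex difference was 0.63 (edgeR adjusted p = 0.0954), and the interaction was -1.15 (edgeR adjusted p = 0.0790). The interaction was also lost without any one of 8 further libraries (edgeR adjusted p from 0.0592 to 0.101) and with a fit of the compared groups alone (0.0873).

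In tumours Hspa5 was at 478, 370.2 and 380.3 CPM in wild-type males, 486, 423 and 411 CPM in knock-in males and 922, 547 and 629.6 CPM in wild-type females. Each female tumour was above each tumour of both male groups, yet within females the tumours lay inside the range of normal colon. The tumour differences were 0.24, 0.14 and -0.11 in the same order, and none was called. Their 95% intervals were -0.30 to 0.79, -0.40 to 0.68 and -0.65 to 0.43.

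A list of 25 further genes of ER folding and stress signalling was tested beside Hspa5. Of these, 12 were lower and 0 higher in knock-in female normal colon, where 7% of all genes were lower. Hsp90b1, the HSP90 of the ER, fell by 1.14 on the log2 scale (SE 0.24), from 763 ± 283 CPM to 346 ± 42.0 CPM (SD, n = 3). The disulfide isomerases Pdia6 (-1.05) and Pdia4 (-0.87), the BiP cochaperones Hyou1 (-0.98), Sdf2l1 (-0.85), Dnajc3 (-0.81) and Dnajb9 (-0.63), and the secreted Manf (-0.94) were lower as well. The transcription factors Xbp1 (-0.78) and Atf6 (-0.35), the lectin Canx (-0.46) and the degradation factor Edem1 (-0.54) completed the 12. The stress-induced Ddit3 (-0.06), Atf4 (0.15) and Herpud1 (0.18) were not called. Apart from Hsp90b1, these genes were named after their values were seen. The median over the list was -0.48, beside 0.02 over all genes tested.

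In male normal colon the same comparison called 0 of the 25 in either direction with edgeR. In wild-type normal colon 7 of the 25 were higher in females than in males, and 0 were lower. In the interaction of sex and genotype 4 of the 25 were lower, namely Pdia6 (-1.12), Manf (-1.11), Xbp1 (-1.03) and Pdia4 (-0.99), and 0 were higher. These sex and genotype comparisons share the wild-type female normal libraries. Without wild-type female normal replicate 2 the genotype comparison left 5 of the 25 lower with a median of -0.28, without replicate 1 it left 7, without knock-in replicate a 7 and without knock-in replicate b 8. With library totals as scaling 8 were lower, with DESeq2 15, and with GC and length offsets 16. None was higher in any of these. Muc2, the gel-forming mucin of goblet cells, which load the ER heavily, was also lower in knock-in female normal colon (-1.99, SE 0.45), at 3407 ± 64.2 CPM against 13531 ± 5537 CPM. Of 7 plasma cell markers tested, Xbp1 was lower and none higher in this comparison, and their summed level was 344 to 380 CPM in knock-in and 388 to 585 CPM in wild-type libraries. Sdc1 and Xbp1, the latter also in the ER list, made up most of this sum. Their medians over all libraries were 291 and 172 CPM of library totals, and the next highest was Prdm1 at 23.1. The part of goblet or plasma cell RNA in the ER genes was not tested.

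**Figure D3:**
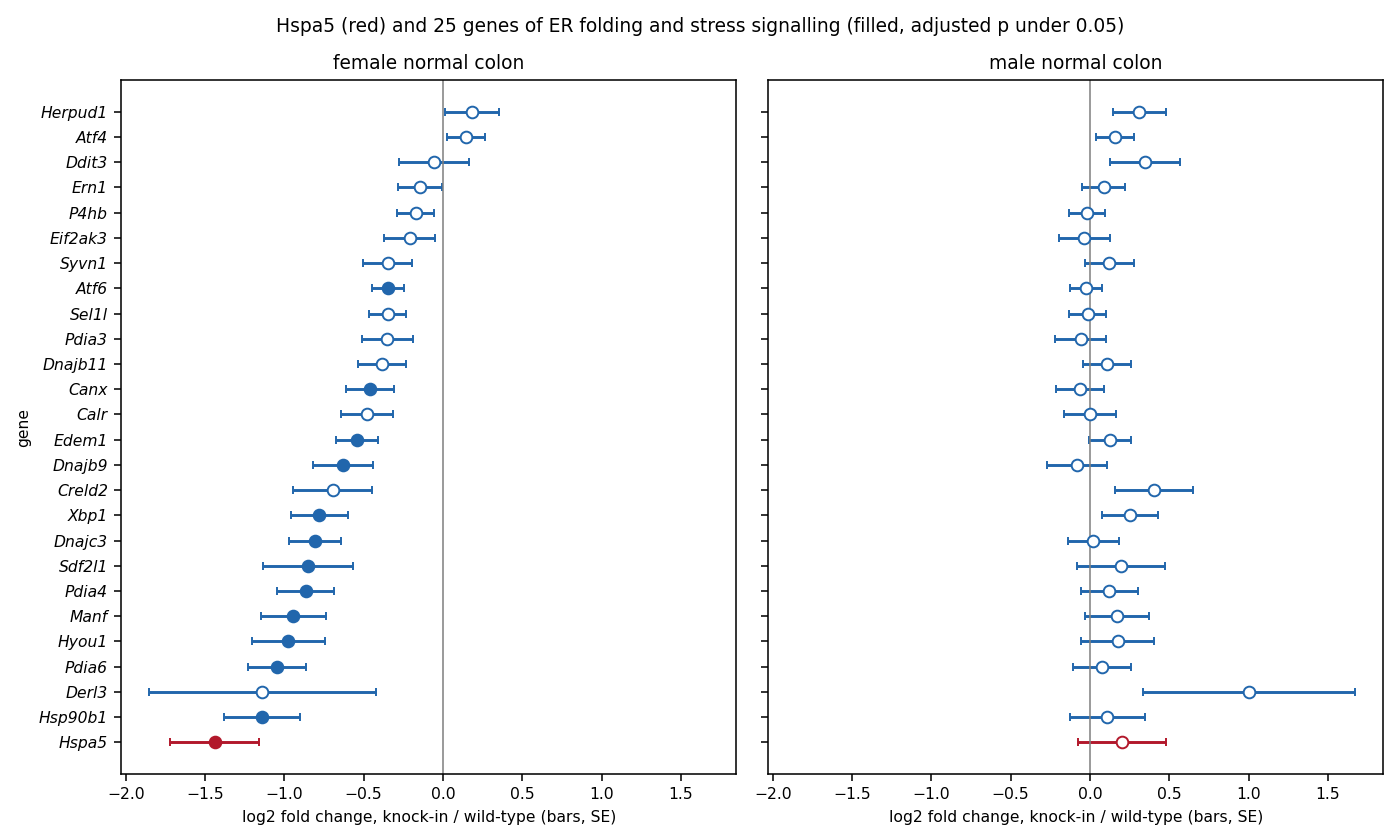
Log2 fold change of knock-in against wild-type normal colon (horizontal axis, bars are SE) for Hspa5 (red) and 25 genes of ER folding and stress signalling (rows), in females on the left and males on the right. Filled points have an adjusted p under 0.05, and 12 of the 25 and Hspa5 are filled in females and 0 in males.

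In tumours the ER list was called less often than all genes in each comparison. Of its 25 genes 0 were higher and 3 lower in wild-type males, where 35.7% of all genes were called. In knock-in males there were 0 and 0 (20.4%), and in wild-type females 1 higher and 4 lower (49.1%). Herpud1, an ER stress-induced factor of protein degradation, was lower in wild-type tumours of males (-0.82) and of females (-0.71). Male tumours of knock-in animals had more of it than wild-type ones (0.77). Its mean was 132 ± 17.3 CPM in knock-in and 77.6 ± 6.34 CPM in wild-type male tumours.

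Cirbp encodes the cold-inducible RNA-binding protein. In female normal colon it was at 16.6, 10.4 and 21.5 CPM in wild-type and 44.1, 52.0 and 37.0 CPM in knock-in animals. Every knock-in library was far above every wild-type one, in the opposite order to Hspa5 and Hsp90aa1. The group means were 16.2 ± 5.54 CPM and 44.4 ± 7.49 CPM (SD, n = 3), and the difference was 1.45, SE 0.36, edgeR adjusted p = 0.0126. Without wild-type replicate 2 it was 1.23 (edgeR adjusted p = 0.0724), and without knock-in replicate a 1.33 (edgeR adjusted p = 0.0568). With GC and length offsets it was 1.30 (edgeR adjusted p = 0.0164). Male normal colon was at 37.0, 28.2 and 28.1 CPM in wild-type and 44.7, 23.8 and 31.1 CPM in knock-in animals, and male tumours at 33.3, 40.7 and 36.1 CPM and 18.4, 31.7 and 50.8 CPM. Wild-type female tumours were at 12.6, 32.3 and 23.6 CPM and overlapped their normal colon. Of the 7 groups, both wild-type female ones had the lowest means.

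Rbm3 encodes a related cold-inducible protein that protects translation in cooled cells. In wild-type females it was at 54.7, 59.9 and 68.9 CPM in normal colon and 75.9, 123 and 111 CPM in tumours. All tumours were above all normal libraries, with tumour replicate 1, the library high in heat shock transcripts, the lowest of the tumours. The difference was 0.76, SE 0.20, edgeR adjusted p = 0.00465. It was 0.94 without tumour replicate 1 (edgeR adjusted p = 0.00125) and remained called when any other library of the comparison was left out. With the class of library numbers from 152 up as a covariate it was 0.46 (edgeR adjusted p = 0.125).

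In wild-type males Rbm3 was at 97.1, 69.0 and 73.4 CPM in normal colon and 106, 122 and 99.6 CPM in tumours, again without overlap (0.45, SE 0.20, edgeR adjusted p = 0.0917). In knock-in males it was at 105, 90.9 and 90.6 CPM in normal colon and 88.4, 145 and 133 CPM in tumours. Knock-in male tumour replicate 1, which was also the highest of its group in Hspa1a, Hspa1b, Hsph1, Hspa8, Hsp90aa1 and Dnajb1, was the one tumour below its normal group. Knock-in female normal colon was at 111, 76.6 and 76.7 CPM, above the wild-type female range (0.53, edgeR adjusted p = 0.0817), and was called with GC and length offsets (0.69, edgeR adjusted p = 0.0196). The antisense gene Rbm3os overlaps Rbm3 and had 5 to 22 counts per library, against 418 to 2450 counts for Rbm3.

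A list of 20 further RNA-binding proteins with an RNA recognition motif, the fold that Cirbp and Rbm3 share, was mostly higher in tumours where it was called. It counted 3 higher and 0 lower genes for wild-type males, a smaller share than the 35.7% of all genes called there. There were 6 and 0 for knock-in males, where 20.4% of all genes were called. For wild-type females there were 10 and 1, where 49.1% of all genes were called and 25% were higher. The largest rise was that of Tardbp (0.50, SE 0.11) in knock-in males and of Srsf1 (0.57, SE 0.098) in wild-type females, both factors of RNA processing, and the splicing factor Srsf5 was lower in wild-type female tumours (-0.42, SE 0.094). Between genotypes in female normal colon 1 of the 20 was higher, Rbm17 (0.41, SE 0.12), and 3 were lower, with Rbm14 (-0.50, SE 0.14) the farthest.

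The GC content of the member transcripts runs from 41.5% in Rbm3 to 61.7% in Hspb1, and the libraries differed in how their counts depended on it. The slope of log2 level on GC content, per 10 percentage points, was -0.383 to -0.224 in wild-type and -0.0418 to 0.169 in knock-in female normal libraries. With offsets for GC content and length, added after the data were seen, the female genotype comparison called Hspa5, Cirbp, Dnajb1 (-0.63, edgeR adjusted p = 0.0455) and Rbm3, and no longer Hsp90aa1 or Hspb1.

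For most members the neighbouring groups in the order of mean level overlapped. All 6 neighbouring pairs overlapped for Hspa1a, Hspa1b, Hspa8, Dnajb1 and Cirbp. Ranges were apart between wild-type male tumour and wild-type male normal for Hsp90aa1 and Hsph1, and between knock-in male and knock-in female normal colon for Hsph1. They were also apart between knock-in male tumour and wild-type female normal for Hspb1, between wild-type female and knock-in male tumours for Hspa5, and between wild-type male and wild-type female normal colon for Rbm3. The highest group mean was that of wild-type female tumours for Hspa8, Hsp90aa1 and Hsph1, and the lowest was that of knock-in female normal colon for Hspa8, Hsp90aa1, Hsph1 and Hspa5. Without wild-type female tumour replicate 1 the tumour mean was 1460 CPM for Hspa8 and 307 CPM for Hsp90aa1, under the 1569 and 345 CPM of wild-type female normal colon, which was then the highest group. The ratio of the highest to the lowest group mean ran from 1.41 for Dnajb1 to 6.14 for Hsph1, and without that library the ratio for Hsph1 was 3.08. For Hspa1a and Hspa1b it rose from 2.21 and 2.22 to 3.53 and 5.27, with wild-type female tumours then lowest.

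Male genotype comparisons gave narrow limits for some members and wide ones for others. In male normal colon the 95% interval of the knock-in difference was -0.40 to 0.38 for Dnajb1 and -0.14 to 0.65 for Rbm3, but -1.61 to 1.14 for Hspa1b. In male tumours it was -0.39 to 0.40 for Dnajb1 and -0.97 to 1.86 for Hspa1b. In both comparisons the ranges of all 10 members overlapped, where those of 3.75% and 3.33% of all genes were apart in normal colon (higher and lower) and those of 20.3% and 16.1% in tumours.

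Within groups, several pairs of members varied together from library to library. Deviations of log2 CPM from the group mean were compared over the 21 libraries, with permutation p-values within groups, taken in both directions and adjusted over 5 chosen pairs. Hspa1a and Hspa1b correlated at Pearson r = 0.90 (permutation adjusted p = 0.00203; Spearman rho = 0.82, 0.00385). Hsp90aa1 with Hsph1 gave r = 0.92 (permutation adjusted p = 0.00347) and rho = 0.84 (0.00570). Hspa5 with Hsp90b1, its ER partner, gave r = 0.88 (permutation adjusted p = 0.00203) and rho = 0.83 (0.00330). Cirbp with Rbm3 gave r = 0.70 (permutation adjusted p = 0.0118) and rho = 0.62 (0.0209). Dnajb1 with Hsph1 gave r = 0.78 (permutation adjusted p = 0.0324) and rho = 0.57 (0.0669).

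Leaving out the 2 libraries farthest from the median gave r = 0.74 for the HSP70 pair, 0.86 for Hsp90aa1 with Hsph1, 0.81 for Hspa5 with Hsp90b1, 0.37 for Cirbp with Rbm3 and 0.28 for Dnajb1 with Hsph1. Both of the latter were no longer past the threshold (permutation adjusted p = 0.157 and 0.599), so that these relations rest on those libraries. Without wild-type female tumour replicate 1, Dnajb1 with Hsph1 was at 0.65 (permutation adjusted p = 0.129), and the other four pairs stayed past the threshold by r. By rho Cirbp with Rbm3 did not (0.51, permutation adjusted p = 0.0741).

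Over all 45 pairs of members, the 15 pairs of Hspa1a, Hspa1b, Hspa8, Hsp90aa1, Hsph1 and Dnajb1 all had positive r, from 0.67 to 0.92, with 7 past the threshold adjusted over the 45. Leaving out wild-type female tumour replicate 1, these 15 ran from 0.34 to 0.88, with 4 past it. The 12 pairs of one of these with Cirbp or Rbm3 all had negative r, from -0.88 to -0.46, with 4 past the threshold, and without that library they ran from -0.83 to -0.13, again with 4 past it. Hsph1 with Cirbp, singled out after its value was seen, gave the lowest r, -0.88 (rho = -0.84, permutation adjusted p over the 45 pairs 0.00180 for r and 0.00315 for rho). With that library left out it was -0.83. Hspb1 followed this pattern in part, with r of 0.71 to Hspa1a but 0.29 to Hsph1 and -0.18 to Cirbp, none past the threshold (permutation adjusted p over the 45 pairs 0.0611, 0.603 and 0.712). With that library left out these were 0.40, -0.40 and 0.49, so that the signs with Hsph1 and with Cirbp turned. All pairs share the same libraries and scaling.

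**Figure D4:**
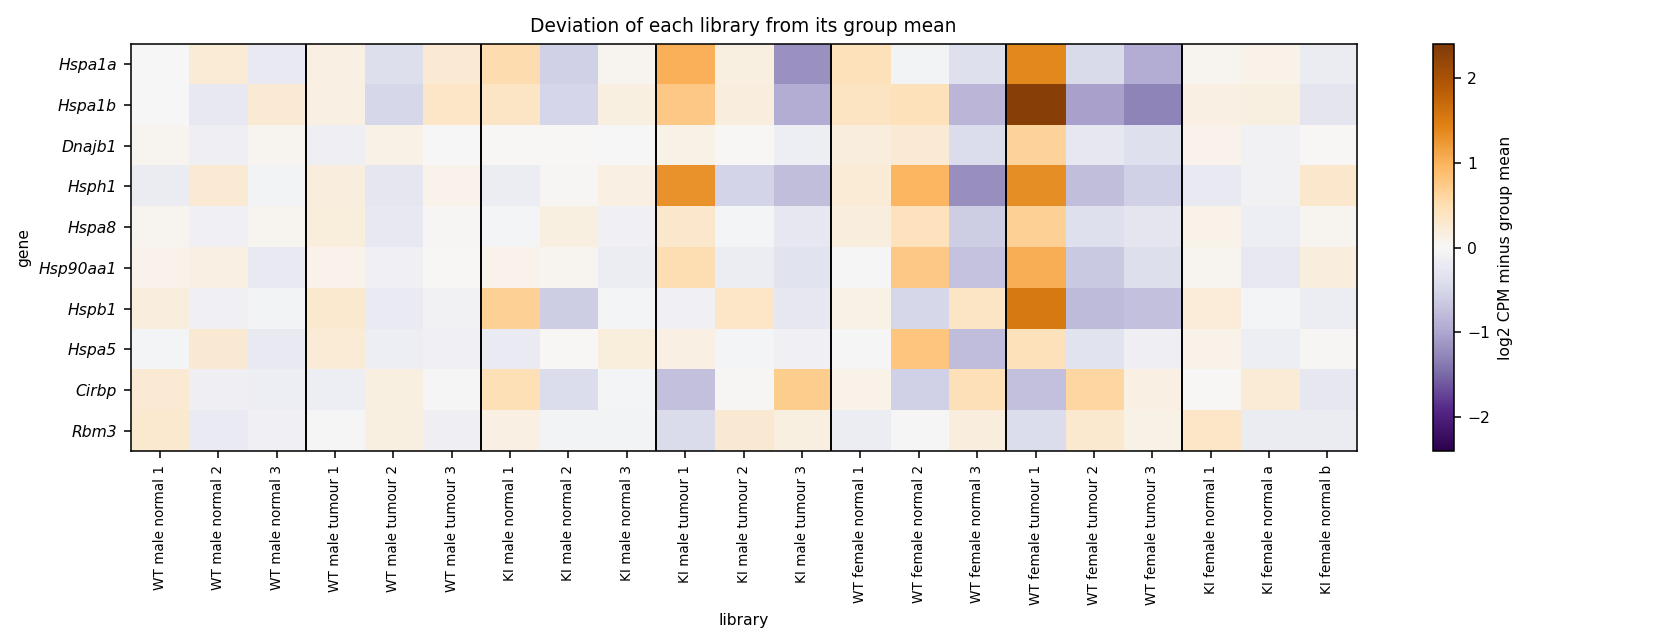
Deviation of each library from its group mean in log2 CPM (colour), for the 10 members (rows) in 21 libraries (columns, groups divided by lines). In wild-type female tumour replicate 1 the cytosolic chaperones are up to 2.32 above the group mean while Cirbp (-0.75) and Rbm3 (-0.41) are below it. Knock-in male tumour replicate 1 and wild-type female normal replicate 2 show the same opposition for Cirbp with most of these chaperones. Hspb1 is below the group mean in both (-0.10 and -0.49), and Hspa1a in the latter (-0.07).

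The genes whose deviations were most like those of each member were named among 11801 tested genes with a mean of at least 50 counts, as a description over 21 libraries. The members and genes with predicted, ribosomal or mitochondrial names had been left out of these. Dnaja1, another J protein of HSP70, was the nearest for Hspa8 (r = 0.95), Hsp90aa1 (0.96), Hsph1 (0.91) and Dnajb1 (0.84). Chordc1, an HSP90 cochaperone, was second for Hspa8 (0.90) and Hsph1 (0.91), the mitochondrial chaperonin Hspe1 for Hsp90aa1 (0.94), and Vps45 for Dnajb1 (0.81). Hspa5 was nearest to Ints2 (0.94) and Creld2 (0.92), an ER stress-induced gene. Cirbp was nearest to Rapgef1 (0.90) and Mapkbp1 (0.89), and Rbm3 to Isl1 (0.92) and Hnrnpl (0.85). Hspa1a was nearest to Mark3 (0.86) and Cacna1a (0.81), Hspa1b to Lrrc57 (0.85) and Pepd (0.82), and Hspb1 to Slc25a1 (0.81) and Rhod (0.77).

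Genes known as HSF1 targets or regulators were read from a list that held 17 genes besides the members. Tumours of wild-type males had 4 higher and 1 lower of them, those of knock-in males 3 and 0, and those of wild-type females 8 and 2. Over all genes 35.7%, 20.4% and 49.1% were called in these comparisons. Hsp90ab1, the constitutive HSP90, rose in wild-type tumours of males (0.70, SE 0.17) and of females (1.06, SE 0.18), where it went from 942 ± 251 to 1967 ± 502 CPM. Stip1, which passes clients from HSP70 to HSP90, was higher in wild-type males (0.81, SE 0.23), and Cacybp in knock-in males (0.81, SE 0.22). The J protein Dnajb4 was lower in wild-type male (-0.89, SE 0.18) and female (-1.01, SE 0.18) tumours. Without wild-type female tumour replicate 1, 3 genes of this list were higher in wild-type female tumours and the median was 0.15 instead of 0.50. Without wild-type female normal replicate 3, 3 were higher as well, without replicate 1 of that group 4, and with a fit of the compared groups alone 3.

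Between genotypes in female normal colon 3 of the 17 were lower in knock-in animals, Hspa4l (-1.11, SE 0.23), Chordc1 (-1.10, SE 0.29) and Dnaja1 (-0.84, SE 0.28). Leaving out wild-type female normal replicate 1 or 2 or knock-in replicate a each left 1 lower. Dnaja1, at 110 ± 34.7 CPM in wild-type and 61.5 ± 7.35 CPM in knock-in libraries, was called lower there, as was Hsp90aa1. In male normal colon edgeR called 0 of the 17, and in male tumours 3 were lower and 1 higher.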

How the data were processed

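Total RNA from 21 mouse colon libraries was depleted of ribosomal RNA, primed with random hexamers and sequenced, per the labels' protocols. The authors deposited whole-number read counts per gene symbol for 24062 genes. Trimmomatic, HISAT2, featureCounts and DESeq2 with mm10 are named in the submitters' processing notes. Their versions, the annotation, strand setting and handling of multi-mapping reads are not given in the sources used here, which bears on Hspa1a and Hspa1b. Totals were 3414123 to 26174008 counts.

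Counts were tested with edgeR 4.0.16 in R 4.3.3 (filterByExpr, TMM scaling, quasi-likelihood test, 1 coefficient per group over all 21 libraries, two-sided), with Benjamini-Hochberg adjustment over 15936 genes at 0.05, in 9 comparisons and 3 interactions. CPM values use TMM-scaled totals, and log2 CPM a prior count of 2. Intervals are at 95%, from the SE by the normal approximation. Correlations were tested with 100000 permutations within groups. DESeq2 1.42.0, other scalings and filters, only the compared groups, the replicate block, a class of library numbers as a covariate and leaving out each library were tried as alternatives, with offsets for GC content and length and the settings without wild-type female tumour replicate 1 in the correlations chosen after seeing the data. Code was tested on simulated data.

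Same-numbered libraries deviated together in wild-type male tumour against normal colon (r = 0.267, 0.227 and 0.314). In knock-in males r ran from -0.348 to 0.139, and in wild-type females from -0.102 to 0.0311. Replicate 1 of knock-in and wild-type male normal colon, which differ in genotype and cannot share an animal, gave r = 0.596. This check therefore cannot show pairing, and the labels give none. The replicate block held 1 coefficient per replicate number over all groups in its fit. No replicate pair agreed within sampling noise (chi-square per degree of freedom 6.60 to 63.4). The members and the 15 other gene lists were chosen with earlier results of these data known. From each other list the gene with the largest called change in each direction was to be named in each tumour and genotype comparison, and for each member the 2 genes of most similar deviations. A few genes that this rule names are not reported here.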

Additional observations from a re-analysis of the deposited data

Results flagged for a closer look

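Hspa5 had a genotype difference that differed between the sexes in normal colon. The knock-in difference in females minus that in males was -1.64 on the log2 scale (SE 0.39, edgeR adjusted p = 0.0350), from -1.44 in females and 0.20 in males. All 3 knock-in female libraries were below all 3 wild-type female ones, while the male groups overlapped. Without wild-type female normal replicate 2, where Hspa5 was highest, the interaction was -1.15 (edgeR adjusted p = 0.0790). The call was also lost without any one of 8 further libraries (edgeR adjusted p from 0.0592 to 0.101) and with a fit of the compared groups alone (edgeR adjusted p = 0.0873).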

How the results depend on the processing

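Of 1236 values of the members that kept all replicates, 1195 kept their side of the threshold, 31 became called and 10 lost their call. Leaving out libraries gave 900 values, of which 862 kept their side, 10 became called and 28 lost it, and no called value changed sign in either set. With a fit of the compared groups alone, edgeR called 4 members in wild-type male tumours, 1 in wild-type female tumours, 1 between sexes in wild-type normal colon and 0 in the interaction of sex and genotype. With the class of library numbers from 152 up as a covariate it called 2 for wild-type male tumours, 2 for knock-in male tumours, 4 in wild-type female tumours, 2 between sexes in wild-type tumours and 6 between sexes in wild-type normal colon. DESeq2 called 5 members between sexes in wild-type normal colon and 1 in the interaction of sex and tumour. Without a low-count filter 2 were called between genotypes in female normal colon. GC and length offsets called 1 member in wild-type male tumours, Rbm3 (0.60, adjusted p = 0.0173), and 2 together with the replicate block. The replicate block alone, fitted on the 18 numbered libraries, called 0 members in wild-type male tumours and changed no call in the other comparisons it covered, none of which includes knock-in females. Leaving out 1 library gave 0 to 1 members in wild-type male tumours (Rbm3 without normal replicate 1), 0 for knock-in male tumours, 2 to 4 in wild-type female tumours, 1 to 5 between genotypes in female normal colon, 0 to 5 between sexes in wild-type normal colon and 0 to 1 in the interaction of sex and genotype. The correlation of Dnajb1 with Hsph1 was 0.28 without the 2 farthest libraries and 0.65 without wild-type female tumour replicate 1, and that of Cirbp with Rbm3 was 0.37 without the 2 farthest. The cause of these shifts was not tested.

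Counts of all genes called moved more: 3246 in knock-in male tumours became 724 with only the compared groups, and the interaction of genotype and tumour in males ran from 0 to 2104 around 240 over the settings. Library totals as scaling moved the median over all genes to 0.151 for tumours of wild-type females and 0.103 for normal colon of knock-in females. Hspa1a was read from as few as 15 counts and Cirbp from 75, which limits their precision most.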

Other observations

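The other chaperone lists are given beside the share of all genes that edgeR called in tumours, which was 35.7% for wild-type males, 20.4% for knock-in males and 49.1% for wild-type females. Some genes stand in several lists, so that the counts are not independent. Hsp90ab1, Stip1, Fkbp4, Chordc1, Dnajb4 and Dnaja1 are also in the HSF1 list, and Hsp90b1 and Dnajb9 are also in the ER list. Of 10 cytosolic and mitochondrial chaperonin genes, whose rings fold actin, tubulin and imported proteins, 4 were higher in wild-type male tumours, 7 in those of knock-in males and 8 in those of wild-type females, and 0 were lower in any of the 3. The median log2 fold changes were 0.37, 0.63 and 0.64. Cct6a, a subunit of the cytosolic ring, went from 110 ± 14.2 to 211 ± 28.0 CPM (SD, n = 3) in wild-type females (log2 fold change 0.94) and from 102 ± 18.2 to 174 ± 17.3 CPM in knock-in males (0.78). Cct3 was the highest riser in wild-type males (0.61). Without wild-type female tumour replicate 1, 6 of the 10 were higher in wild-type females. Between genotypes edgeR called 0 of the 10 in each of the 3 comparisons.

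Among 17 cochaperones of HSP70 and HSP90, 6 were higher and 1 lower in wild-type male tumours, 3 and 1 in those of knock-in males, and 7 and 1 in those of wild-type females, which is close to those shares. The one that fell was Fkbp5 each time, an HSP90 partner induced by glucocorticoids. It went from 73.9 ± 12.2 to 20.5 ± 0.179 CPM in wild-type males (-1.85), from 119.9 ± 54.0 to 45.4 ± 14.9 CPM in knock-in males (-1.40) and from 134 ± 31.5 to 27.1 ± 6.64 CPM in wild-type females (-2.30). Knock-in male tumours had more of it than wild-type ones (1.15), and there Fkbp4 was lower (-0.64). The largest rises were those of Stip1 in wild-type males (0.81), Ptges3 in knock-in males (0.88) and Bag2 in wild-type females (1.15). Between female genotypes in normal colon Bag2 was higher (1.06) and Chordc1 lower (-1.10).

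Of 17 J proteins, 2 were higher and 1 lower in wild-type male tumours, 2 and 1 in those of knock-in males, and 3 and 2 in those of wild-type females, all below those shares. Dnaja4 was the highest riser in wild-type males (1.34) and females (1.41), and Dnajc2 in knock-in males (0.67), where Dnajb5 was lower (-0.74). Dnajb9 was higher in male tumours with the knock-in than without (0.65). Normal colon of knock-in females had 1 that was higher, Dnajb5 (1.54), and 4 that were lower, where 8.97% and 7% of all genes were. Of 13 further HSP70 and HSP90 genes, 2 were higher and 1 lower in wild-type male tumours, led by Hsp90ab1 (0.70) and Hspa12a (-1.03). In knock-in males 4 were higher, led by Hspa13 (0.66), and in wild-type females 4, led by Hspa2 (1.21), with 0 lower in both. Between female genotypes in normal colon 2 were higher (8.97% of all genes) and 4 lower (7%), with Hspa12b (1.42) the highest. P4hb of the ER list was higher in wild-type female tumours (0.43), and Rbm39 was higher in male tumours with the knock-in than without (0.34).

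Lists of other tissue states moved as follows. Of 10 proliferation genes 3, 8 and 9 were higher in tumours of wild-type males, of knock-in males and of wild-type females, and 0 were lower. Of 9 epithelial genes 1 was higher and 6 lower, 1 higher and 0 lower, and 1 higher and 8 lower in the same order, and of 7 colon genes 6, 3 and 7 were lower. Of 8 leukocyte genes 0 were called in wild-type males, 2 were lower in knock-in males, and 3 were higher and 2 lower in wild-type females. Of 7 plasma cell genes 2, 1 and 1 were higher and 1, 1 and 3 lower, and of 10 immediate early genes 1, 0 and 2 were higher and 0, 0 and 2 lower. In knock-in female normal colon 0 proliferation, 0 leukocyte and 0 immediate early genes were called by edgeR, 2 epithelial and 3 colon genes were lower, and 0 were higher in either list.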
